A study of Rattus norvegicus with 9 samples.

Results

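The expression of 9 genes of the Nrf2 pathway and of antioxidant defence was followed in cultured rat renal artery endothelial cells. The genes were taken by their Ensembl identifiers from the 32883 rows of the gene table, and all 9 were present and passed the filter on low counts. The 9 libraries fell into 3 groups of 3, named Normal, Model and Calycosin and Tanshinone IIA in the labels, the last called the treated group here. The series title ties the cells to angiotensin II (Ang II), a vasoconstrictor peptide that is known to raise superoxide production in vascular cells, and the Model group is read as the cells given it. Calycosin is a plant isoflavone and tanshinone IIA a lipophilic quinone from danshen. The labels give the treated group only these compounds, so it is set against Model on the title's premise that its cells also had Ang II. All groups were grown from passaged cells in the same serum-containing medium, and the labels state no dose or time. Nor do they name the cultures behind the replicates, so each p-value rests on spread among libraries that could be technical repeats. The table carries no gene symbols beyond the identifiers used here, so endothelial markers and markers of other cell types were not analysed here. A level in bulk RNA cannot tell fewer cells of a type from less RNA per cell.

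Nrf2, the product of Nfe2l2, is a transcription factor that is held in the cytoplasm and marked for degradation by Keap1. Oxidants and electrophiles modify cysteines of Keap1, after which Nrf2 accumulates, enters the nucleus, pairs with small Maf proteins and binds antioxidant response elements near its target genes. Much of this control acts on the protein, so the mRNA of Nfe2l2 or Keap1 is not a direct readout of Nrf2 activity. Known targets include Hmox1, Nqo1, Gclc and Gclm, while catalase and the superoxide dismutases remove hydrogen peroxide and superoxide. None of these genes is ruled by Nrf2 alone.

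In units of 1000000 counts, 7.98 to 18.3 were assigned to genes per library, with the lowest totals in treated libraries 2 and 3. The 9 genes together took 0.0811% to 0.0922% of a library's counts. Genes were tested with edgeR's quasi-likelihood test over all 12943 genes that passed the filter. Calls were made at 0.05 after Benjamini-Hochberg adjustment. Levels within a gene are given as counts per 1000000 counts (CPM) on TMM-scaled library sizes.

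Nqo1 had the largest fold of the 9 genes in both comparisons of the treated group, and it was higher in the treated cells. It encodes NAD(P)H quinone dehydrogenase 1, which reduces quinones without releasing reactive semiquinones, and is a classical Nrf2 target. Nqo1 (ENSRNOG00000012772) stood at 81.6, 93.3 and 81.4 CPM in Normal libraries, at 88.6, 86.5 and 96.6 CPM in Model libraries and at 129, 110.4 and 117 CPM in the treated libraries. The 3 treated libraries lay above all 6 others, whereas Normal and Model overlapped. Against Model, Nqo1 rose from 90.6 ± 5.32 to 119 ± 9.12 CPM (SD, n = 3), which is 1.31-fold (log2 fold change 0.39 ± 0.08 SE, edgeR adjusted p = 0.0279). Against Normal, at 85.4 ± 6.82 CPM, the rise was 1.39-fold (log2 fold change 0.48 ± 0.08 SE, edgeR adjusted p = 0.00413). By p-value it ranked 70 of 12943 genes in both comparisons, which share the treated libraries. Between Model and Normal Nqo1 was not called, with a fold of 1.06 and a 95% interval of 0.946 to 1.19 (edgeR adjusted p = 0.999).

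The rise of Nqo1 over Normal was called in each fit that left out 1 library, with log2 fold changes from 0.41 to 0.55. The rise over Model ranged from 0.33 to 0.44 in these fits, and its call was lost in several. The edgeR adjusted p was 0.0614 without Normal library 1, 0.146 without Model library 1, 0.0616 without Model library 3, and 0.125, 0.0772 and 0.0966 without treated library 1, 2 or 3. The dot plot of fold changes under other settings shows this difference between the 2 comparisons.

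**Figure D1:**
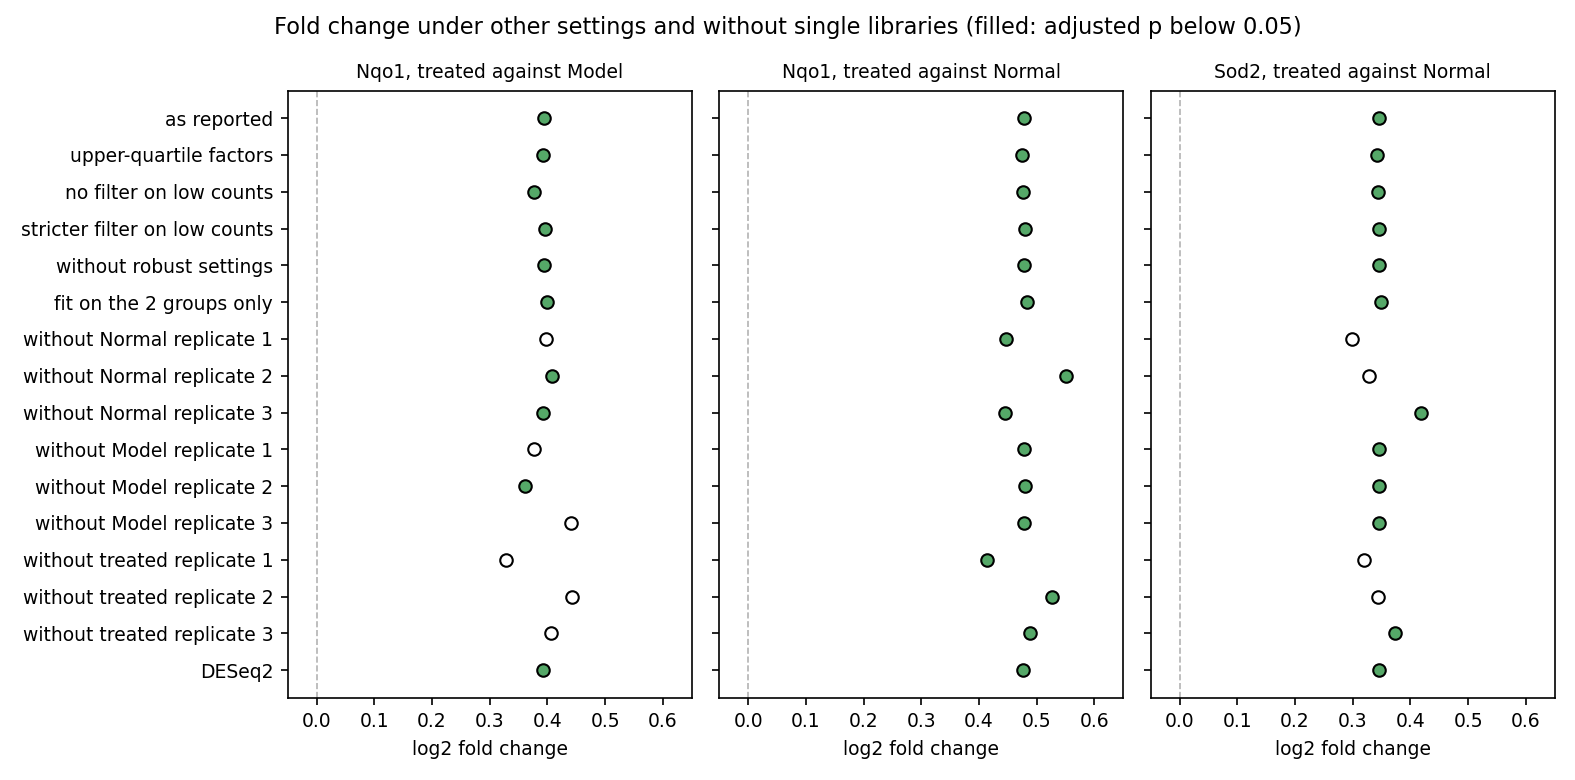
Log2 fold change (x axis) of Nqo1 against Model, of Nqo1 against Normal and of Sod2 against Normal in the treated group, with 1 row for each setting or left-out library shown; filled points have an adjusted p below 0.05. All points lie to the right of 0, and open points appear for Nqo1 against Model and for Sod2 against Normal but not for Nqo1 against Normal. The fit that took replicate numbers as a block is not drawn.

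Sod2 was the other member called. It encodes the manganese superoxide dismutase of the mitochondrial matrix, which turns superoxide into hydrogen peroxide. Sod2 (ENSRNOG00000019048) was at 70.5, 73.5 and 83.4 CPM in Normal libraries, at 87.8, 86.7 and 91.8 CPM in Model libraries and at 99.3, 96.7 and 92.6 CPM in the treated libraries. The groups did not overlap, with Normal lowest and treated highest. The margin between Model and treated was narrow, at 91.8 CPM in Model library 3 and 92.6 CPM in treated library 3. Against Normal, Sod2 rose from 75.8 ± 6.75 to 96.2 ± 3.35 CPM in the treated group (SD, n = 3), which is 1.27-fold (log2 fold change 0.35 ± 0.07 SE, edgeR adjusted p = 0.0190). Neither Model against Normal nor treated against Model passed the test for Sod2. Model, at 88.8 ± 2.68 CPM, was 1.17-fold above Normal with a 95% interval of 1.05 to 1.30, an unadjusted p of 0.00615 and an edgeR adjusted p of 0.999. The treated group was 1.08-fold above Model with an interval of 0.976 to 1.21 (edgeR adjusted p = 0.521). The call against Normal was lost without Normal library 1 (edgeR adjusted p = 0.118), Normal library 2 (0.0697), treated library 1 (0.0749) or treated library 2 (0.0910).

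The promoters of Nqo1 and Sod2, the members called, are shown with that of Gclm, a target that was not called. They run from 250 bases before to 50 after the gene's start, 5′ to 3′ on the gene's strand, and come from RefSeq on build GRCr8, not the build named for the counts. The table holds a promoter for 8 of the 9 genes, Hmox1 being the one without. Capitals mark matches, on either strand, to TGACNNNGC, the core of the antioxidant response element. Nqo1 lies at chr19:52220218-52220517 on the minus strand, Sod2 at chr1:50050119-50050418 on the minus strand and Gclm at chr2:213031885-213032184 on the plus strand.
Nqo1: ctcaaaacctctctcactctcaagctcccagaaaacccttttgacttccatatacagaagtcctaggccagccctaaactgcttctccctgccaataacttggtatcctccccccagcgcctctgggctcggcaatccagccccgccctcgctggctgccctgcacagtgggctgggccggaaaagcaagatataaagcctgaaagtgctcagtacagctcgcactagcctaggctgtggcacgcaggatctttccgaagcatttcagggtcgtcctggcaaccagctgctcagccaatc
Sod2: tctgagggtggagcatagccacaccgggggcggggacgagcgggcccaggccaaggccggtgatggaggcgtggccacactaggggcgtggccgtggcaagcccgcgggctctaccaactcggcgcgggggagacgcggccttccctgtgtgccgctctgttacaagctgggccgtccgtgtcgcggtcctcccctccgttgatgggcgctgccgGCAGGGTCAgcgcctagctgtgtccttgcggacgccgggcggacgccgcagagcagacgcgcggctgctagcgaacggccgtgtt
Gclm: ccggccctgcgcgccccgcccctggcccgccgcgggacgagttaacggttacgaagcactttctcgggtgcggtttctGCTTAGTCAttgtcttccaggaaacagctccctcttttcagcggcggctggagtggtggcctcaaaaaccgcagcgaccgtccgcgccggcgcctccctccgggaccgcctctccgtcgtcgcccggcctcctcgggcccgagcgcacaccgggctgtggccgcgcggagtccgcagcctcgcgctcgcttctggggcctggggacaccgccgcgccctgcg
No match stood in this window of Nqo1, which says only that these letters are not within it. The match of Sod2 read TGACCCTGC and that of Gclm TGACTAAGC, both on the strand opposite to the gene. With Nfe2l2, 3 of the 8 promoters held a match, against 12.1% of all 33469 promoters of the same length. The match of Nfe2l2 lay after the gene's start, and Gclc, another known target that was not called, held none. With 8 promoters the difference in share carries no weight, and it was not tested. The related motif TGANTCA, bound by AP-1 factors, was found in 0 of the 8 and in 7.33% of all promoters. A single site can hold both motifs, so the searches can overlap. A match is a description of the sequence and no evidence of binding in these cells.

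The remaining members did not pass the test in any comparison. Nfe2l2 (ENSRNOG00000001548) was at 167, 153 and 186 CPM in Normal libraries, at 159, 180.0 and 162 CPM in Model libraries and at 190.0, 177 and 178 CPM in the treated libraries. The treated libraries sat in the upper part of the range but overlapped both other groups. Its fold was 1.09 against Model, with a 95% interval of 0.974 to 1.22 (edgeR adjusted p = 0.520), and 1.08 against Normal, with an interval of 0.963 to 1.21 (edgeR adjusted p = 0.475).

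Keap1 (ENSRNOG00000020878), the substrate adaptor that presents Nrf2 to a Cul3 ubiquitin ligase, had estimates on the other side of 1. Its levels were 48.2, 53.1 and 52.8 CPM in Normal libraries, 55.4, 49.6 and 49.98 CPM in Model and 52.0, 44.6 and 45.1 CPM in the treated libraries. Treated libraries 2 and 3 were below all 6 Normal and Model libraries, and treated library 1 was among them. The fold was 0.921 against Model (95% interval 0.814 to 1.04, edgeR adjusted p = 0.577) and 0.925 against Normal (0.817 to 1.05, edgeR adjusted p = 0.501).

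Because both genes were measured in each library, their ratio does not depend on how libraries are scaled. The FPKM ratio of Nfe2l2 to Keap1 was 4.75, 3.96 and 4.83 in Normal, 3.92, 4.97 and 4.43 in Model and 5.01, 5.44 and 5.41 in the treated libraries. All 3 treated libraries were above the 6 others, by a narrow margin over Model library 2. The mean ratio was 5.29 ± 0.242 in the treated group, 4.44 ± 0.525 in Model and 4.51 ± 0.482 in Normal (SD, n = 3). The permutation tests of this and the later ratios compared group means of the log2 ratio. Against Model and against Normal the exact two-sided permutation p was 0.1, the smallest that 3 against 3 libraries allow, so this difference could not pass 0.05.

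Hmox1 (ENSRNOG00000014117), which encodes the inducible heme oxygenase that breaks heme down to biliverdin, iron and carbon monoxide, was the scarcest member. It had 45 to 132 counts in a library. Its levels were 4.68, 7.39 and 5.31 CPM in Normal libraries, 6.05, 4.67 and 6.28 CPM in Model and 7.23, 6.34 and 5.49 CPM in the treated libraries, and the groups overlapped throughout. The fold was 1.14 between treated and Model (95% interval 0.862 to 1.51, edgeR adjusted p = 0.704) and 0.976 between Model and Normal (0.739 to 1.29, edgeR adjusted p = 0.9996). These were the widest intervals among the 9 genes, and the one against Model reached above the fold of Nqo1.

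Gclc and Gclm encode the catalytic and the modifier subunit of glutamate-cysteine ligase, the first enzyme of glutathione synthesis. Gclc (ENSRNOG00000006302) was at 249.6, 242 and 249.2 CPM in Normal libraries, at 257, 267 and 252 CPM in Model libraries and at 227, 228 and 258 CPM in the treated libraries. Its Model libraries were all above the Normal ones, and treated libraries 1 and 2 were below all others. The fold was 0.917 between treated and Model (95% interval 0.838 to 1.005, edgeR adjusted p = 0.421) and 1.05 between Model and Normal (0.958 to 1.15, edgeR adjusted p = 0.999). Gclm (ENSRNOG00000013409) was at 44.5, 41.2 and 52.9 CPM in Normal libraries, at 45.5, 48.8 and 50.4 CPM in Model libraries and at 49.8, 51.4 and 48.9 CPM in the treated libraries. Normal library 3 was the highest of all and Normal library 2 the lowest. Its fold was 1.08 between treated and Normal (95% interval 0.947 to 1.24, edgeR adjusted p = 0.522).

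Per length, Gclc mRNA exceeded Gclm mRNA in every library. The FPKM ratio of Gclc to Gclm averaged 2.63 ± 0.299 in Normal and 2.62 ± 0.161 in Model, next to 2.32 ± 0.221 with treatment (SD, n = 3). The exact two-sided permutation p was 0.2 for the treated group against either other group, where 0.1 is the smallest possible.

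Cat and Sod1 overlapped between all groups. Cat (ENSRNOG00000008364) encodes catalase, the peroxisomal enzyme that splits hydrogen peroxide, and was at 57.5, 52.3 and 55.6 CPM in Normal libraries, 52.7, 58.1 and 53.3 CPM in Model and 59.2, 55.03 and 59.8 CPM in the treated libraries. The 3 groups overlapped, and the fold between treated and Model was 1.06 (95% interval 0.952 to 1.18, edgeR adjusted p = 0.653). Sod1 (ENSRNOG00000002115) encodes the copper-zinc superoxide dismutase of the cytosol. It was at 107, 96.1 and 118 CPM in Normal libraries, 124, 107 and 104 CPM in Model and 108, 114 and 111 CPM in the treated libraries, with overlap in every comparison. Its fold between treated and Normal was 1.04 (95% interval 0.913 to 1.17, edgeR adjusted p = 0.798).

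The 2 dismutases thus differed in their estimates, and the ratio of Sod2 to Sod1 was taken within each library. It was 0.209, 0.243 and 0.224 in Normal, 0.224, 0.259 and 0.280 in Model and 0.291, 0.269 and 0.266 in the treated libraries. Treated and Normal did not overlap (0.275 ± 0.0139 against 0.225 ± 0.0171, SD, n = 3; exact two-sided permutation p = 0.1, the smallest possible). Model, at 0.254 ± 0.0283, overlapped both, with exact two-sided permutation p of 0.2 against Normal and 0.4 against treated.

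**Figure D2:**
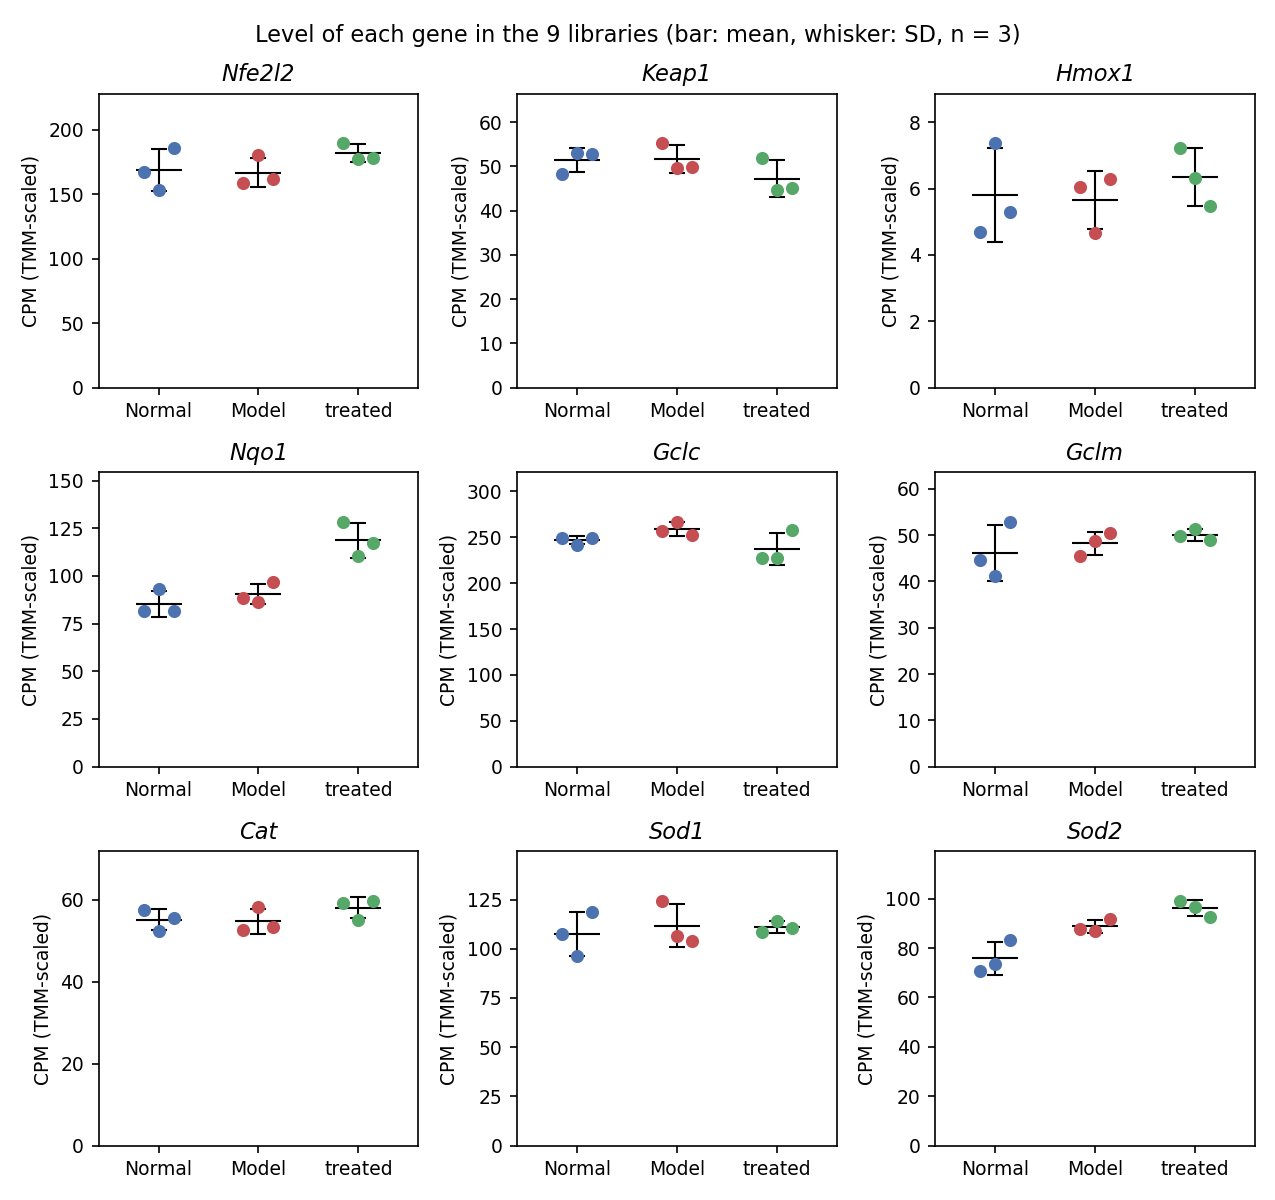
TMM-scaled CPM (y axis, from 0) of each gene in the Normal, Model and treated libraries, with 1 point per library, a bar at the mean and whiskers of 1 SD (n = 3). The treated points of Nqo1 (110.4 to 129) stand above all others, and the other 7 genes overlap between treated and both other groups. The groups of Sod2 do not overlap, but the margin between Model and treated is narrow.

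**Figure D3:**
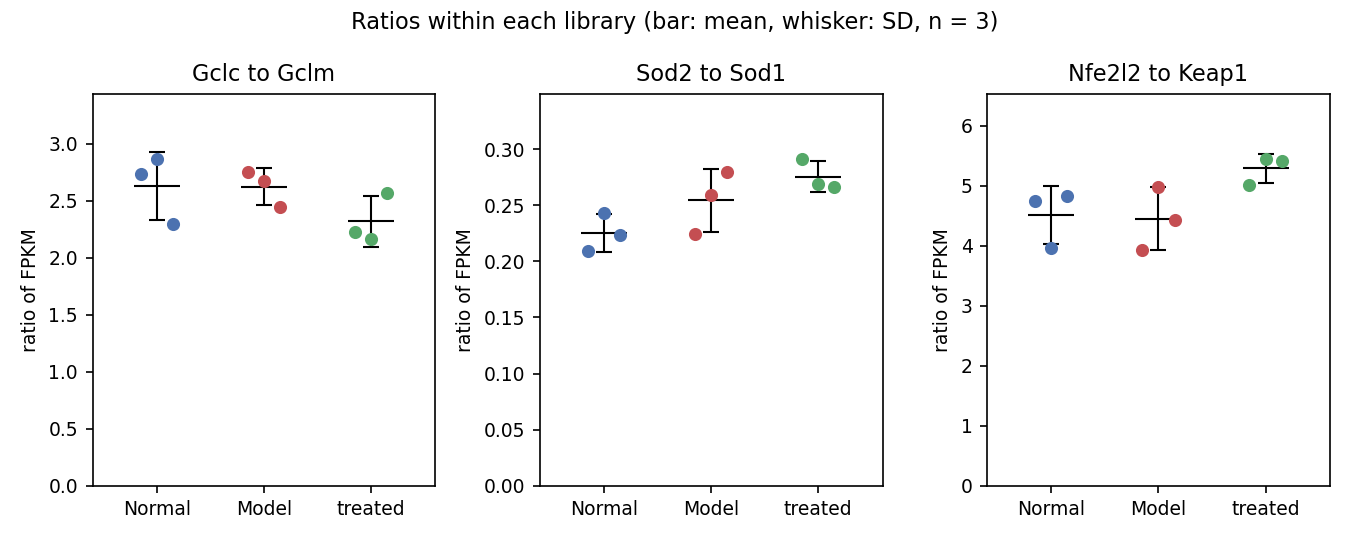
Ratio of FPKM values within each library (y axis, from 0) for Gclc to Gclm, Sod2 to Sod1 and Nfe2l2 to Keap1, by group, with the mean and SD (n = 3). Treated libraries are above all others for Nfe2l2 to Keap1 and above Normal for Sod2 to Sod1, while the Gclc to Gclm ratios overlap.

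Counted over the 9 genes, 0 were called between Model and Normal, where edgeR called 0% of all tested genes. Without adjustment, edgeR gave 550 of the 12943 tested genes a p below 0.05, and Sod2 was the 1 member among them. DESeq2, run on all genes with a count in any library, called 0 genes. It gave 409 genes of this unfiltered set an unadjusted p below 0.05, again with Sod2 as the 1 member. Both programs used the same counts, so this is no separate support for Sod2. Some unadjusted p-values below 0.05 arise even where no gene differs. The smallest edgeR adjusted p of any tested gene was 0.999 for Model against Normal. Between treated and Model 1 of 9 was called, Nqo1, against 0.919% of all tested genes. Between treated and Normal 2 of 9 were called, Nqo1 and Sod2, both higher, against 2.67% of all. These counts moved with single libraries. For treated against Model the all-gene count of 119 was 8 without treated library 2 and 215 without Model library 2, and the member count was 0 in 6 of the 9 fits that left out a library. For treated against Normal the all-gene count of 346 was 94 without treated library 2 and 671 without Normal library 3, and the member count was 1 without Normal library 1, Normal library 2, treated library 1 or treated library 2. For Model against Normal 16 genes, no member among them, were called without Model library 1. The comparisons share groups, and with 9 genes chosen with earlier results known these counts carry no test of the list.

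Separation of the libraries was counted next to calls. Between Model and Normal 2 of 9 did not overlap, Gclc and Sod2, against 9.12% of all tested genes. Between treated and Model the 2 were Nqo1 and Sod2, against 18.8% of all, which is near their share. Between treated and Normal they were again Nqo1 and Sod2, against 24.4% of all, a share close to theirs. The median log2 fold change of the 9 genes was 0.06 for Model against Normal, 0.09 for treated against Model and 0.11 for treated against Normal, where the medians of all tested genes were -0.0024, -0.00096 and 0.00070. The median size of the change, sign aside, was 0.06, 0.12 and 0.11 for the 9 genes and 0.07, 0.11 and 0.12 for all tested genes.

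**Figure D4:**
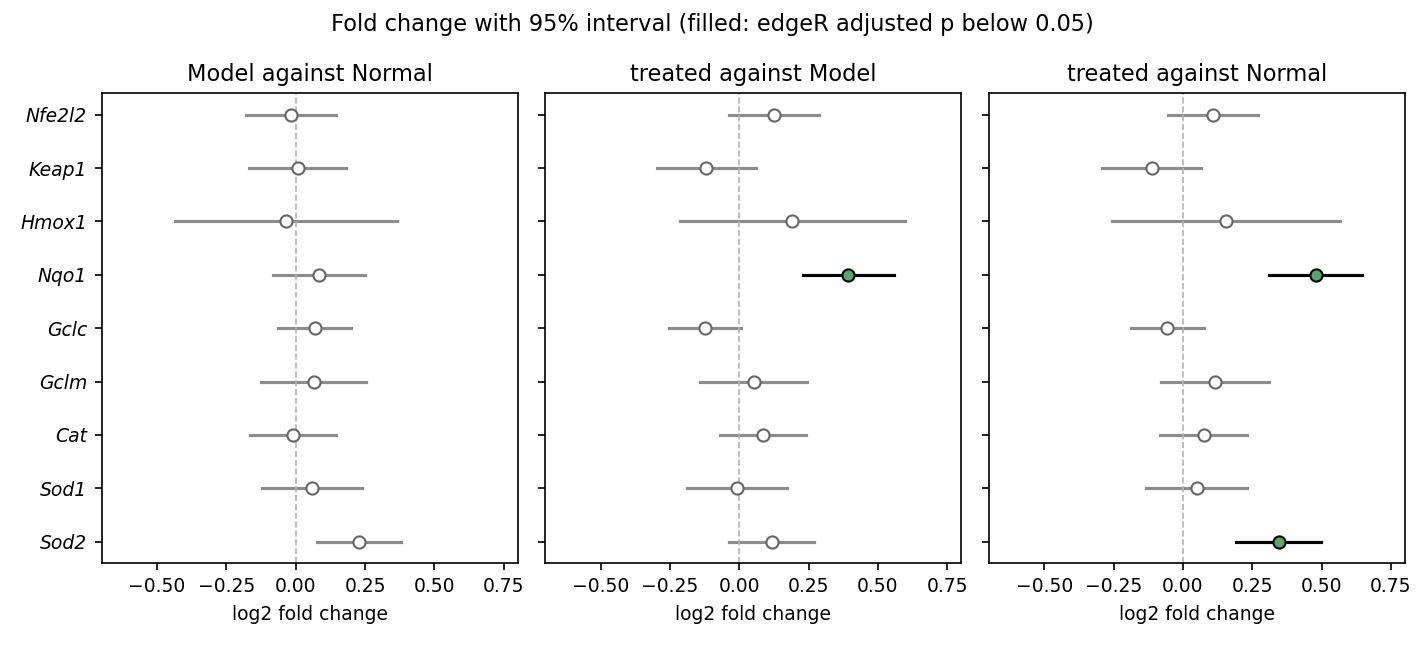
Log2 fold change (x axis) of the 9 genes in the 3 comparisons, with the 95% interval as a line; filled points were called by edgeR. Nqo1 is filled in both comparisons of the treated group and Sod2 against Normal, and the interval of Hmox1 is the widest in each panel.

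Levels of different genes were compared per length, as FPKM (fragments scaled to gene length and library depth) from the authors' columns. Sod1 was highest at 168 ± 12.9 FPKM (SD over 9 libraries), above 96.8% of all tested genes. Gclc followed at 81.3 ± 4.26 and Nfe2l2 at 74.7 ± 5.66 FPKM. Gclc exceeded Nfe2l2 in 7 of 9 libraries, the exceptions being treated libraries 1 and 2, so their order is not firm across groups. Nqo1 was next at 62.2 ± 10.8 FPKM and lay below Nfe2l2 in all 9 libraries, although the ranges overlapped, from 51.4 to 81.4 against 66.4 to 82.4 FPKM. Sod2 at 42.1 ± 4.84 and Gclm at 32.4 ± 2.54 FPKM also overlapped in range, with Sod2 the higher in all 9 libraries. Cat at 22.01 ± 1.15, Keap1 at 15.8 ± 1.11 and Hmox1 at 3.79 ± 0.635 FPKM each lay below the next higher gene without overlap. Hmox1 was above 22.2% of the tested genes only.

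**Figure D5:**
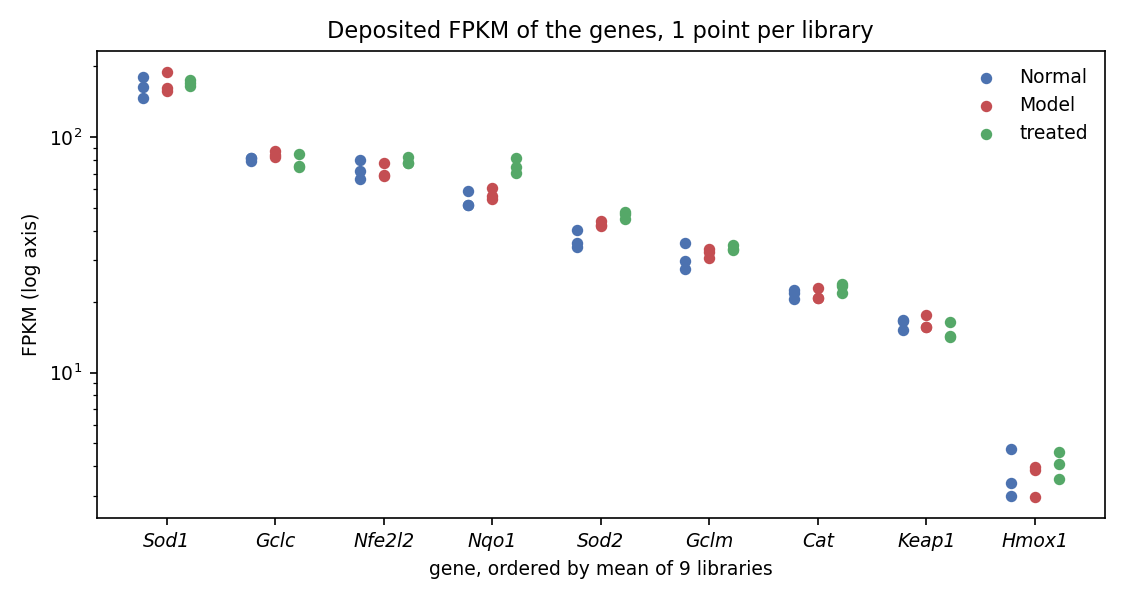
Deposited FPKM (log axis) of the 9 genes in order of their mean, with 1 point per library coloured by group. Sod1 is highest at 146 to 189 FPKM and Hmox1 lowest at 2.97 to 4.71 FPKM, and Nqo1 has its 3 treated points above the rest.

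Across the 9 libraries the members did not follow 1 common pattern. By Pearson r of log2 CPM, the pair most alike was Nfe2l2 and Cat, with 0.777 and a Spearman rho of 0.8. The pair least alike was Hmox1 and Gclc, with -0.675 and -0.700. Nqo1 and Sod2 had an r of 0.732 but the highest rho of any pair, 0.85. Among all tested genes, ENSRNOG00000008075 and ENSRNOG00000003858 came closest to Nfe2l2 (r = 0.972 and 0.970), and ENSRNOG00000001442 and ENSRNOG00000013668 to Hmox1 (r = 0.927 and 0.919). An r over 0.9 was reached by 37 genes for Nfe2l2 and by 6 for Hmox1. The named genes are thus only the top of a search over all tested genes. These values describe 9 libraries that share their groups and scaling, and carry no test.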

How the data were processed

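Total RNA of 9 libraries was sequenced from strand-specific libraries, per the labels' protocols. The authors deposited whole-number read counts per gene, and FPKM values that scale them to gene length and depth, per the file headers. The submitters' processing notes name CASAVA 1.8 and the mRatBN7.2 build. Which aligner, counter, strand setting and annotation were used is not given in the sources used here. Reads of overlapping or antisense genes may therefore be mixed. Columns were matched to samples by name.

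The count model was edgeR 4.0.16 under R 4.3.3, with TMM scaling and filterByExpr (min.count 10), then estimateDisp, glmQLFit (robust) and glmQLFTest. The model held a mean for each group, was fitted to all 9 libraries together, and its p-values were adjusted over 12943 genes. Standard errors divide the log2 fold change by the root of the quasi-likelihood F, and intervals are at 95%. The common biological coefficient of variation was 8.87%. Replicate pairs differed beyond sampling noise (chi-square 4.27 to 15.3 per degree of freedom), so no pair was merged as 1 library deposited repeatedly. This does not show that the libraries are independent cultures. The model was tested beforehand on simulated data whose known changes were all larger than the folds of the 9 genes. That test does not bear on changes of the size seen here. DESeq2 1.42.0 was run with its default scaling on all genes with a count in any library. The edgeR model was refitted with upper-quartile scaling, unfiltered or with min.count 50, and without robust settings. Further edgeR refits used 2 groups at a time, used a replicate block, or left out each library in turn. For log2 CPM a prior count of 2 was used. All 9 members were named by rule, as were the pairs and genes most alike. The members and lists were chosen with earlier results of these data known. Of 35 other pathway symbols and the marker lists, 0 could be matched to identifiers, so they were not analysed here. The lncRNA table was not used here.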

Additional observations from a re-analysis of the deposited data

How the results depend on the processing

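The members' 27 fold changes were each taken again under 16 alternatives, which gave 432 values. Of these, 403 kept their direction and side of the threshold, 11 lost a call, 0 gained one and 18 changed sign. Most of the 27 were not called to begin with and could not lose a call. In the treated group, the call was lost in 7 of 16 alternatives for Nqo1 against Model and in 4 of 16 for Sod2 against Normal. Nqo1 against Normal was called under all 16 alternatives, with an edgeR adjusted p of at most 0.0496. Sign changes were among small, uncalled differences. Leaving out 1 library moved the Model against Normal log2 fold change between -0.092 and 0.058 for Nfe2l2, -0.045 and 0.035 for Keap1, -0.17 and 0.17 for Hmox1, -0.023 and 0.17 for Gclm, -0.056 and 0.019 for Cat and -0.026 and 0.14 for Sod1. It moved that of Sod1 between -0.058 and 0.074 for treated against Model and between -0.019 and 0.13 for treated against Normal. With no filter on low counts Cat was at 0.0041 for Model against Normal. The Model against Normal log2 difference ranged from -0.096 to 0.064 for the ratio of Gclc to Gclm and from -0.11 to 0.064 for that of Nfe2l2 to Keap1 without 1 library.

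Without 1 library, all-gene counts ranged from 0 to 16 for Model against Normal, 8 to 215 for treated against Model and 94 to 671 for treated against Normal. The members called ranged from 0 to 1 for treated against Model and from 1 to 2 for treated against Normal. DESeq2 called 233 genes for treated against Model and 549 for treated against Normal, and 1 and 2 members. Replicate numbers are shared by the groups, but only 2 of 9 same-numbered pairs had deviations correlated over 0.1 (range -0.01 to 0.28), and 1 of 9 libraries was closest to its own number. With the replicate block 47 genes and 0 members were called for treated against Model, Nqo1 at an edgeR adjusted p of 0.0922, and 1 gene, no member, for Model against Normal. Counts of 45 to 132 limit the precision for Hmox1.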
